A study of Rattus norvegicus with 12 samples.

Results

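The 10 genes described here encode chaperones and helper proteins of the endoplasmic reticulum (ER) that the unfolded protein response controls. They were taken by name as Hspa5, Hsp90b1, Dnajb9, Pdia4, Calr, Creld2, Sdf2l1, Manf, Hyou1 and Herpud1, with earlier results of these data known. Each had exactly 1 row among the 23760 genes of the deposited tables, and all 10 passed the filter on low values that left 19050 genes. RNA was sequenced from the hippocampus of rats (Rattus norvegicus) with 6 samples of a group called NC and 6 of a group called AS3h. According to its title the study is about cognitive impairment brought on by long work under water, and about the chemokine receptor Ccr3; none of the 12 samples is labelled as a Ccr3 knockdown. The labels give the tissue but neither expand the group names nor state strain, age, sex or treatment. Nothing says whether each sample is a different animal, so the p-values rest on sample-to-sample spread that may be technical.

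The ER folds proteins bound for the cell surface, the lysosome and secretion. When unfolded proteins accumulate, the sensors IRE1 (gene Ern1), PERK (gene Eif2ak3) and ATF6 become active. ATF6 and the spliced form of XBP1 then raise chaperones and degradation factors through short promoter elements, while PERK slows translation and favours ATF4. In hippocampal neurons the same folding machinery serves receptors, channels and adhesion proteins made for synapses.

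In AS3h hippocampus Creld2 and Pdia4 were lower and Herpud1 was higher, and the most abundant chaperones differed less. Creld2 stood at 0.744 and Pdia4 at 0.763 of the NC level, and Herpud1 at 1.28 times it. Of the 10 genes 2 fell, 1 rose and 7 did not pass (limma with Benjamini-Hochberg adjustment over all 19050 genes, threshold 0.05). Of all genes tested, 9.26% were called, 4.22% as lower and 5.04% as higher. Differences below are log2 fold changes, AS3h over NC, with their standard errors, and levels are normalised read counts.

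The upstream sequences of the 3 genes that changed, and of 3 chaperones that carry response elements, are shown with matches of such elements marked. They are 200 bases that end at the base before the start site, from RefSeq on the GRCr8 build, written in the direction of the gene. They lie for Creld2 at chr7:121789184-121789383 (+ strand), Pdia4 at chr4:78153192-78153391 (- strand), Herpud1 at chr19:10614708-10614907 (- strand), Hspa5 at chr3:38452816-38453015 (+ strand), Hsp90b1 at chr7:23012294-23012493 (- strand) and Hyou1 at chr8:53602682-53602881 (+ strand). Capitals mark exact matches of 3 elements, searched on both strands. They are ERSE (CCAAT, any 9 bases, CCACG), ERSE-II (ATTGG, any 1 base, CCACG) and UPRE (TGACGTGG).
Creld2: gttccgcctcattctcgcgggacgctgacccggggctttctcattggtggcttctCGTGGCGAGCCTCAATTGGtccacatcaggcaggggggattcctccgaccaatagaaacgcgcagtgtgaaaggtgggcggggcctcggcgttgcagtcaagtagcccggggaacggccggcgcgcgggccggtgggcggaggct
Pdia4: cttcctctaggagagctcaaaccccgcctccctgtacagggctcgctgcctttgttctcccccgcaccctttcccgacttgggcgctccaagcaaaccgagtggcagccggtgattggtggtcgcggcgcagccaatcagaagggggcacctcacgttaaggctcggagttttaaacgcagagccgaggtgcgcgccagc
Herpud1: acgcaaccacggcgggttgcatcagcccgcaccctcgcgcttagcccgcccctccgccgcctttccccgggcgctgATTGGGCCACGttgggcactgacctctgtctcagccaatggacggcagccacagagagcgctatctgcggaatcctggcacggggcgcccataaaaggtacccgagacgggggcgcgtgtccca
Hspa5: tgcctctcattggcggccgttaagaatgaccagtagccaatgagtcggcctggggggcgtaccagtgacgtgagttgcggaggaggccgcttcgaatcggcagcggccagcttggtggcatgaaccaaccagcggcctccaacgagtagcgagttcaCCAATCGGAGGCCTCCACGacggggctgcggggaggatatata
Hsp90b1: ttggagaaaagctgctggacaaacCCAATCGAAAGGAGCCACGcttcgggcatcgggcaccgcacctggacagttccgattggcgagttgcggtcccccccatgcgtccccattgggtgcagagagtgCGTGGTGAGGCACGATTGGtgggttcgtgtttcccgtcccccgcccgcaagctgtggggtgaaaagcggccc
Hyou1: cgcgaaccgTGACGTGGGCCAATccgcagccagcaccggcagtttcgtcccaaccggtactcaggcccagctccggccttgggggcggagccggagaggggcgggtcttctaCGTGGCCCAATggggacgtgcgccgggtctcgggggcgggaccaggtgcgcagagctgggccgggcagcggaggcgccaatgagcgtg

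RefSeq start-site windows were matched for 9 of the 10 genes, and Manf had none in the table used. ERSE, the element that ATF6 binds together with NF-Y, was found in 4 of the 9 genes: Hspa5, Hsp90b1, Creld2 and Calr. In all 33469 windows of the same length, 250 bases before to 50 bases after a start site, ERSE was found in 22, or 0.0657%. Hsp90b1 had 2 copies. ERSE-II was found in Hyou1, with 2 copies, and in Herpud1, against 0.0508% of all windows. UPRE was found in Hyou1, where it overlapped the farther ERSE-II copy, against 0.595% of all windows. Hyou1 had 2 start-site windows. The one printed above holds its matches, and the other held no match of the 3 elements. The ERSE match of Creld2, that of Calr and 1 of the 2 in Hsp90b1 were on the strand opposite to the gene. Dnajb9, Pdia4 and Sdf2l1 held no exact match of the 3 elements in this window. The shorter parts CCAAT and CCACG, which both lie within ERSE, were present in all 9 genes, against 37.5% and 31.6% of all windows. Of the 3 genes that changed, Creld2 fell and holds an ERSE, Pdia4 fell and holds no match, and Herpud1 rose and holds an ERSE-II.

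**Figure D1:**
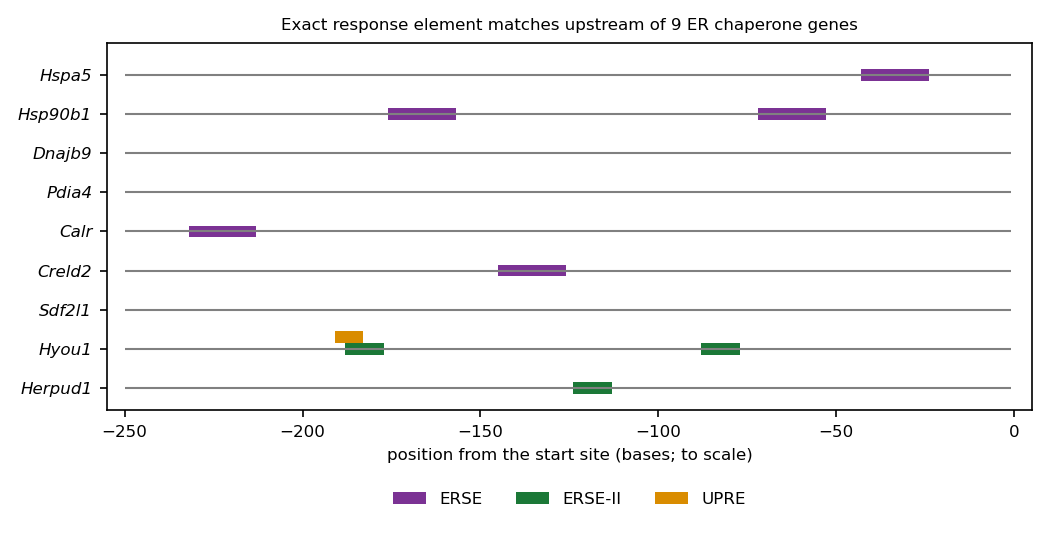
Positions of exact ERSE, ERSE-II and UPRE matches in the 250 bases before the start site of 9 genes, with position in bases on the x axis and 1 gene per line. Coloured blocks are matches drawn to scale, and 6 of the 9 genes carry at least 1. For Hyou1 the matches are those of the start site whose window holds them.

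The search was also read the other way, from the element to the expression values. ERSE windows belonged to 21 gene symbols, with 18 tested rows. Hnrnpa3 had 2 of these rows, both below 0, and both were counted. Calls were made for 2 as higher and 2 as lower, and 14 of the 18 log2 fold changes were below 0, with a median of -0.0787 against -0.00428 over all genes tested. Without the 4 members among them, 10 of 14 were below 0 and the median was -0.0477. The 2 that fell were Creld2 and Xbp1. The 2 that rose were Zfand2a, a zinc finger gene induced by arsenite (0.35 ± 0.062, adjusted p = 0.00336, limma), and Ankmy2 (0.20 ± 0.048, adjusted p = 0.0156, limma), both named after their values were seen. Of the 11 tested genes with an ERSE-II, Herpud1 rose and 10 did not pass, and 2 of the 11 log2 fold changes were below 0, with a median of 0.0932. Of 105 tested genes with a UPRE, 9 rose and 6 fell, with a median of -0.0064. No test compared these sets with each other or with other genes.

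Reads counted per library ran from 30128112 to 38106489 in NC and from 29615243 to 36947557 in AS3h. Of 10 marker genes of hippocampal subfields, 8 had reads in every library, with summed normalised reads of 32427 to 41068 in NC and 26397 to 41671 in AS3h. AS3h 5 and AS3h 4 stood apart in 12 choroid plexus markers, the genes of the secretory epithelium of the ventricles. Their summed reads were 93746 in AS3h 5 and 12385 in AS3h 4, against 3189 to 5098 in NC and 3810.5 to 5787 in the other AS3h libraries. AS3h 5 also led in oligodendrocyte markers, at 602849 against 332046 to 426122 in the other 11 libraries. Over 9 marker lists, the mean log2 level was compared by two-sided exact permutation tests with Benjamini-Hochberg adjustment. Microglial markers (8128 to 10133 summed reads in NC, 7606 to 9209.98 in AS3h) and astrocyte markers (122327 to 143545 in NC, 116168 to 127048 in AS3h) were lower in AS3h, by 0.31 and 0.13 on the log2 scale (exact permutation, adjusted p = 0.039 for both). Blood cell markers (10007 to 23798 in NC, 13129 to 39669.8 in AS3h) had an adjusted exact permutation p of 0.0714. Neuronal markers (172936 to 201960.00 in NC, 188179 to 230213 in AS3h) had one of 0.0925. None of the markers with a row was at 0 in all libraries. The part of these markers in the chaperone values was not tested, beyond the fits named below. In tissue RNA, fewer cells of a type and less RNA per cell cannot be told apart.

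Creld2 (ENSRNOG00000004659), which encodes a cysteine-rich ER protein induced by ER stress, had the smallest p of the 10 genes. Its levels ran from 309 through a median of 358 to 390.2 in NC, and from 239 through 262 to 295 in AS3h. All 6 AS3h libraries lay below all 6 NC libraries, which was so for 2.04% of all genes tested and for none of the other 9 members. For 0 members were all 6 AS3h libraries above all 6 NC libraries, against 3.01% of all genes. The fall was from 356 ± 28.3 to 265 ± 23.5 (SD, n = 6 each), a log2 fold change of -0.43 ± 0.085 (95% interval -0.61 to -0.25; adjusted p = 0.0063, limma). The two-sided exact permutation p of 0.00216 is the smallest that 6 libraries against 6 can give. Leaving out any 1 library kept the call (adjusted p = 0.00546 to 0.0175, limma). Without AS3h 4 and AS3h 5 the value was -0.45 (adjusted p = 0.0202). With choroid plexus and blood markers as covariates it was -0.43, and the adjusted p was 0.135.

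Sdf2l1 encodes a small luminal protein that works with the BiP chaperone cycle, and its difference was nearly as large as that of Creld2 but did not pass the test. Its levels were 175, 241 and 288 (lowest, median and highest) in NC and 145, 169.7 and 243 in AS3h. The groups overlapped, and AS3h 5, the library with the most choroid plexus reads, was the highest of its group at 243 against 179 for the next. The log2 fold change was -0.41 ± 0.15 (95% interval -0.73 to -0.10; adjusted p = 0.0966, limma). Without AS3h 5 it was -0.51 and passed (adjusted p = 0.0374), and with the choroid plexus markers as a covariate it was -0.57 (adjusted p = 0.0359). Sdf2l1 also had the fewest reads, 144 in 1 library, where counting error alone comes to 8.33% of the level. The spread between libraries was wider, at 20.2% in NC and 19.4% in AS3h.

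Manf encodes a neurotrophic factor that is held in the ER and released when its calcium store is emptied. It stood at 1279, 1453 and 1654 in NC and at 1231, 1309 and 1459 in AS3h, with overlapping groups. The difference of -0.13 ± 0.063 (95% interval -0.27 to 0.0012) did not pass (adjusted p = 0.205, limma). The highest of the AS3h libraries was again AS3h 5.

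Among the large ATP-driven chaperones no call was made. Hspa5, which encodes BiP, the Hsp70 of the ER and the brake on all 3 sensors, stood at 10865, 12075 and 12592 in NC and at 10659, 11177 and 11640.2 in AS3h. All 6 AS3h libraries were below the NC mean, but NC 1 and NC 3 were as low as the AS3h libraries. The log2 fold change was -0.10 ± 0.046 (95% interval -0.19 to 0.0019; adjusted p = 0.21, limma). Hsp90b1, encoding the ER Hsp90 GRP94, which folds integrins and Toll-like receptors, stood at 13156, 14679.7 and 15521 in NC and at 12787, 13008 and 13873 in AS3h. Of its AS3h libraries, 4 lay below every NC library. Its difference of -0.14 ± 0.046 (95% interval -0.24 to -0.039) did not pass (adjusted p = 0.0754, limma), and it did without NC 2 (-0.16, adjusted p = 0.0468).

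Hyou1, encoding the Hsp110-type nucleotide exchange factor GRP170, stood at 3793, 3986 and 4119.7 in NC and at 3413, 4007 and 4597 in AS3h. The AS3h libraries spread on both sides of NC: AS3h 1 and AS3h 2 were below every NC library and AS3h 6 was above every one. Its coefficient of variation was 2.96% in NC and 10.8% in AS3h, and its log2 fold change was -0.02 ± 0.063 (95% interval -0.15 to 0.12; adjusted p = 0.897, limma). Dnajb9, encoding ERdj4, a J-domain cochaperone of BiP induced through XBP1, stood at 1254, 1325 and 1433 in NC and at 1251, 1361 and 1438 in AS3h. The groups covered nearly the same range. The log2 fold change was 0.03 ± 0.054 (95% interval -0.089 to 0.14; adjusted p = 0.82, limma), so an increase of more than 1.1-fold lay outside its interval.

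Pdia4 (ENSRNOG00000006228), which encodes the disulphide isomerase ERp72, fell. Its levels were 1263, 1444 and 1816 in NC and 903, 1217 and 1271 in AS3h. Of the AS3h libraries, 5 lay below every NC library, and AS3h 5, the exception, exceeded only NC 1. The mean went from 1513 ± 198 to 1153 ± 137 (SD, n = 6 each), a log2 fold change of -0.39 ± 0.096 (95% interval -0.59 to -0.19; adjusted p = 0.0199, limma; two-sided exact permutation p = 0.00433). Leaving out any 1 library kept the call (adjusted p = 0.0118 to 0.0478, limma). Without AS3h 4 and AS3h 5 the value was -0.41 and did not pass (adjusted p = 0.053). With both covariates it was -0.57 (adjusted p = 0.0774).

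Calr, encoding calreticulin, the lectin chaperone that also buffers ER calcium, stood at 15714, 16307 and 16989.5 in NC and at 14617, 15661 and 16173 in AS3h. The groups overlapped, and the log2 fold change was -0.07 ± 0.039 (95% interval -0.15 to 0.017; adjusted p = 0.319, limma).

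Herpud1 (ENSRNOG00000018796), which encodes a ubiquitin-like protein of the ER membrane that gathers the degradation complex, was the member that rose. Its levels were 963, 1188 and 1291 in NC and 1269, 1523 and 1589 in AS3h. All AS3h libraries except AS3h 3 lay above every NC library. The mean went from 1161 ± 118 to 1478 ± 124 (SD, n = 6 each), a log2 fold change of 0.35 ± 0.077 (95% interval 0.19 to 0.51; adjusted p = 0.011, limma; two-sided exact permutation p = 0.00433). The call held without any 1 library (adjusted p = 0.00566 to 0.031, limma) and without AS3h 4 and AS3h 5 (0.35, adjusted p = 0.0448). With both covariates the value was 0.19 (adjusted p = 0.39).

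**Figure D2:**
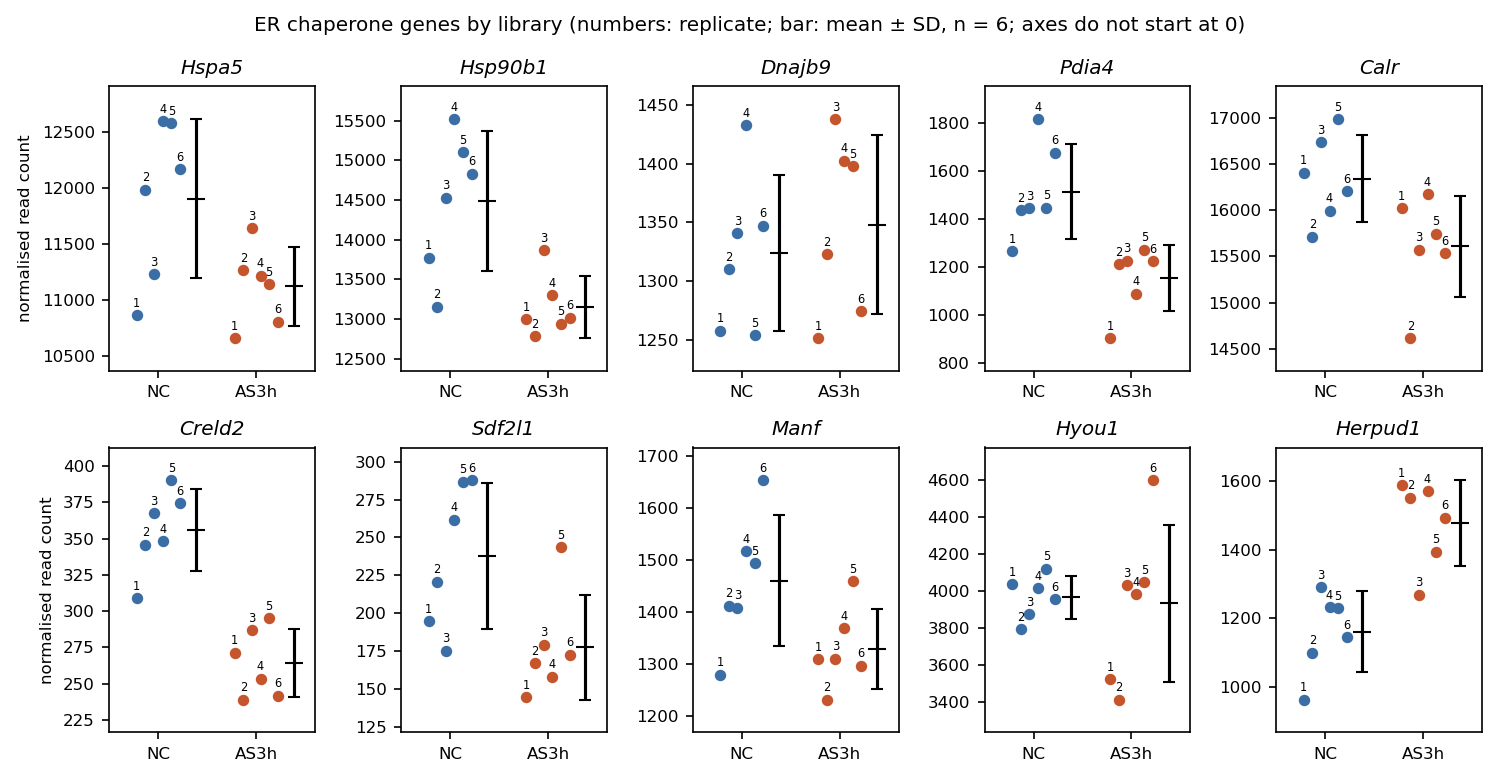
Normalised read count of each of the 10 genes (y axis, a range of its own per gene that does not start at 0) in the 6 NC and 6 AS3h libraries, numbered by replicate, with the mean ± SD. The groups separate without overlap for Creld2 (239 to 295 in AS3h, 309 to 390.2 in NC), and Herpud1 is the gene whose AS3h points lie higher.

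**Figure D3:**
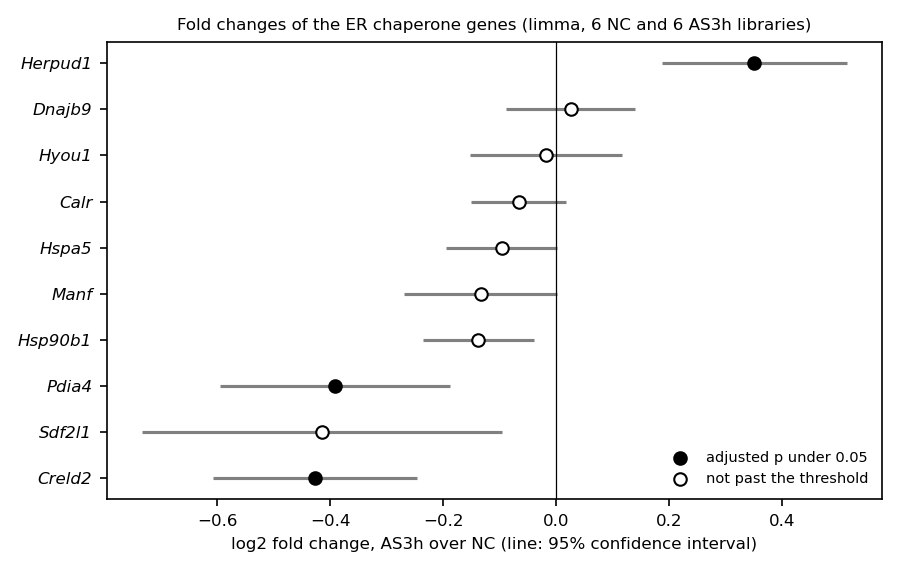
Log2 fold change of each gene, AS3h over NC (x axis), with its 95% confidence interval. Filled points passed at an adjusted p under 0.05: Creld2 at -0.43, Pdia4 at -0.39 and Herpud1 at 0.35.

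Of the 10 log2 fold changes 8 were below 0, against 50.8% of all genes tested, and the median was -0.115 against -0.00428. The unadjusted two-sided exact permutation p was under 0.05 for 8 of the 10 genes, 7 of them lower in AS3h. Of all genes tested, 23.5% were under 0.05 and 11.2% were under it and lower. Under limma, 5 of the 10 had an unadjusted p under 0.05, against 24.9% of all genes. Because the members were chosen with earlier results of these data known, these shares describe them and do not test them. All 10 were read in the same libraries, and 38 of 45 pairs had a Pearson coefficient above 0. They are therefore not 10 separate observations.

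Within each group a few libraries held most of the lowest or highest values. NC 1 was the lowest of its group for 5 of the 10 genes, and NC 4 was the highest for 4. In AS3h, AS3h 2 was the lowest for 5 genes and AS3h 1 for 4, and AS3h 5 was the highest for 4, namely Pdia4, Creld2, Sdf2l1 and Manf. Deviations from the group means over the 12 libraries gave Pearson coefficients from -0.42 to 0.745 between pairs of members, with a median of 0.322 over 45 pairs. Of these, 38 were above 0, and how often pairs of other genes are above 0 was not counted. The 2 genes of a pair were read in the same libraries, whose marker levels differed as given above, and the part of those levels in the coefficients was not tested. The closest pair was Sdf2l1 with Manf, and the next was Creld2 with Manf at 0.692. The pairs with Herpud1 had a median of 0.111 and reached 0.265, against a median of 0.397 over the 36 pairs without it. Among 12680 other genes with a mean of at least 100, the deviations most like the members' mean deviation were those of Gemin2 (0.896), Bag3 (0.883) and Prkg2 (0.869), as Pearson coefficients over 12 libraries. With so many genes ranked over so few libraries, unrelated genes can reach such coefficients, and no test was made. Bag3 rose in AS3h, while Gemin2 and Prkg2 did not pass.

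The balance between members within a library does not depend on the library factor. The log2 ratio of Creld2 to Hspa5 ran from -5.17 to -4.93 in NC and from -5.55 to -5.23 in AS3h, without overlap. That of Pdia4 to Hspa5 ran from -3.12 to -2.79 in NC and from -3.56 to -3.13 in AS3h, also without overlap. That of Herpud1 to Hspa5 ran from -3.49 to -3.12 in NC and from -3.20 to -2.75 in AS3h, with an overlap. These pairs were picked after their values were seen, and how often ratios of other genes separate the groups was not counted.

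**Figure D4:**
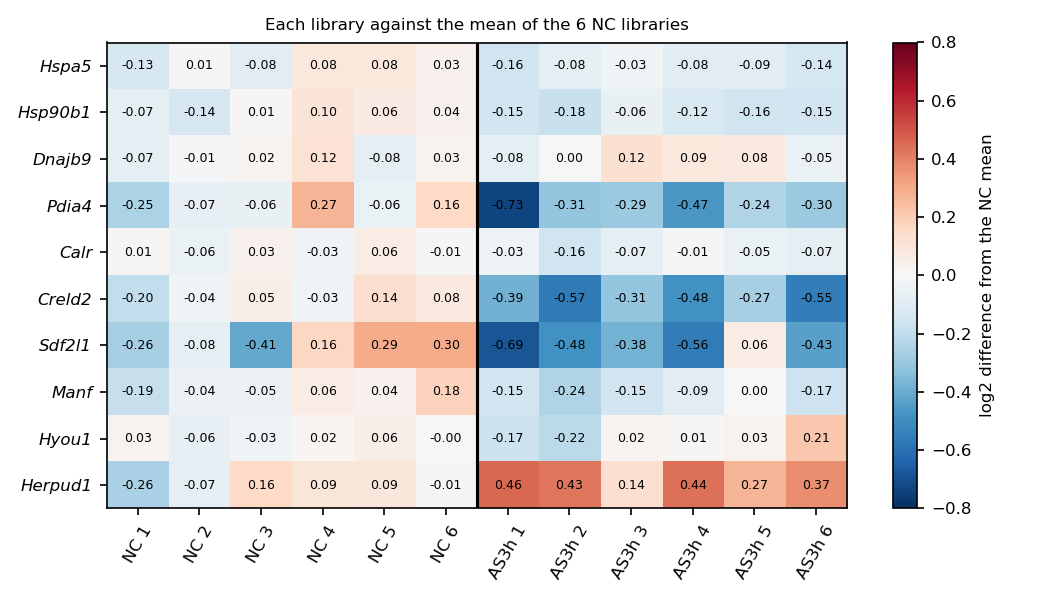
Difference of each library (columns) from the mean of the 6 NC libraries on the log2 scale for each gene (rows), blue for lower and red for higher. Creld2 and Pdia4 are below the NC mean in all 6 AS3h libraries and Herpud1 is above it in all 6, while Hyou1 and Dnajb9 lie on both sides.

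Upstream of the chaperones, Xbp1 fell and Ern1 rose. Xbp1, the transcription factor gene whose RNA IRE1 splices, went from 1883 ± 81.7 to 1615 ± 106 (SD, n = 6 each; -0.22 ± 0.052, adjusted p = 0.0165, limma). Ern1, encoding IRE1 itself, went from 445 ± 53.1 to 557 ± 48.8 (SD, n = 6 each; 0.33 ± 0.088, adjusted p = 0.0316, limma). Gene-level values do not separate spliced from unspliced Xbp1 RNA. Ern1 did not pass in 10 of 12 fits that each left out 1 library (adjusted p up to 0.0705), and both calls were lost without AS3h 4 and AS3h 5 (0.0691 for Xbp1 and 0.13 for Ern1). The other 10 sensors and factors tested, Atf6 and Eif2ak3 among them, did not pass.

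Folding partners of the members split. Of 22 tested, 2 fell, 1 rose and 19 had no call. Pdia6, an isomerase that acts on client proteins and on IRE1, fell (-0.18 ± 0.046, adjusted p = 0.0218, limma), as did Erp44, which retains unfinished disulphide-linked proteins (-0.20 ± 0.05, adjusted p = 0.0211, limma). Txndc11, a thioredoxin-domain partner of the degradation lectins, rose (0.31 ± 0.054, adjusted p = 0.00299, limma). For each of these 3 genes the groups did not overlap. Of all genes tested, 2.04% had all AS3h libraries below all NC libraries and 3.01% had all above. The 3 were named by their calls, so the separation is no further support. Pdia6 did not pass without NC 2 or without NC 3 (adjusted p up to 0.0554) or without AS3h 4 and AS3h 5 (0.0902), and neither Pdia6 nor Erp44 did with the choroid plexus covariate (0.0567 and 0.065).

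Among the 18 genes of ER-associated degradation, the pathway of Herpud1, 2 rose, 0 fell and 16 did not pass. They were Derl1, a channel component for proteins leaving the ER (0.22 ± 0.053, adjusted p = 0.0184, limma), and Ube2g2, a ubiquitin-conjugating enzyme (0.23 ± 0.067, adjusted p = 0.0399, limma). The list median was 0.0920 and 15 of the 18 values were above 0. Over all 19050 genes tested the median was -0.00428, 9367 values were above 0 and 5.04% of genes were called higher. The difference between the list and all genes was not tested. Ube2g2 did not pass in 8 of 12 fits that each left out 1 library, and both genes lost theirs without AS3h 4 and AS3h 5 (adjusted p = 0.057 for Derl1 and 0.13 for Ube2g2).

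At the entry to the ER, 1 of 15 translocon and signal peptidase genes rose and 1 fell. Sec61a1, the channel subunit, rose (0.19 ± 0.05, adjusted p = 0.0261, limma) and Spcs3, a signal peptidase subunit, fell (-0.26 ± 0.051, adjusted p = 0.00612, limma). In glycosylation and glycoprotein folding, Uggt2, a glucosyltransferase that marks misfolded glycoproteins, went from 882 ± 68.3 to 568 ± 33 (SD, n = 6 each; -0.63 ± 0.067, adjusted p = 8.64e-05, limma), the largest change among the genes called in the ER lists outside the ATF4 branch. Dad1, an oligosaccharyltransferase subunit, also fell (-0.19 ± 0.055, adjusted p = 0.0393, limma), and Man1b1, an ER mannosidase, rose (0.18 ± 0.045, adjusted p = 0.0196, limma), with 8 of 11 not passing. Dad1 did not pass in 9 of 12 fits that each left out 1 library, Sec61a1 in 4 and Man1b1 in 1, that without AS3h 4 (adjusted p = 0.0502). Without AS3h 4 and AS3h 5 neither Sec61a1 nor Dad1 passed (adjusted p = 0.0984 and 0.151), nor did they with the choroid plexus covariate (0.0856 and 0.131).

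At the exit, 3 of 11 KDEL receptor and COPII coat genes rose, against 5.04% of all genes tested, 0 fell and 8 did not pass. They were the coat genes Sec23b (0.30 ± 0.06, adjusted p = 0.00659, limma), Sec31a (0.22 ± 0.05, adjusted p = 0.0131, limma) and Sec24d (0.33 ± 0.093, adjusted p = 0.039, limma), of which Sec24d did not pass in 9 of 12 fits that each left out 1 library or without AS3h 4 and AS3h 5 (adjusted p = 0.155). Kdelr1, Kdelr2 and Kdelr3, for the receptors that return KDEL-tailed chaperones such as BiP, were among those that did not pass. In the calcium store list 0 of 16 genes passed with limma. An unadjusted p under 0.05 was found for 4 of the 16, near the share of 24.9% over all genes tested. The smallest p belonged to Stim2 (0.22 ± 0.069, adjusted p = 0.0607) and Nucb1 (0.13 ± 0.049, adjusted p = 0.107). With limma-voom and sample quality weights Stim2 passed (adjusted p = 0.0415).

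**Figure D5:**
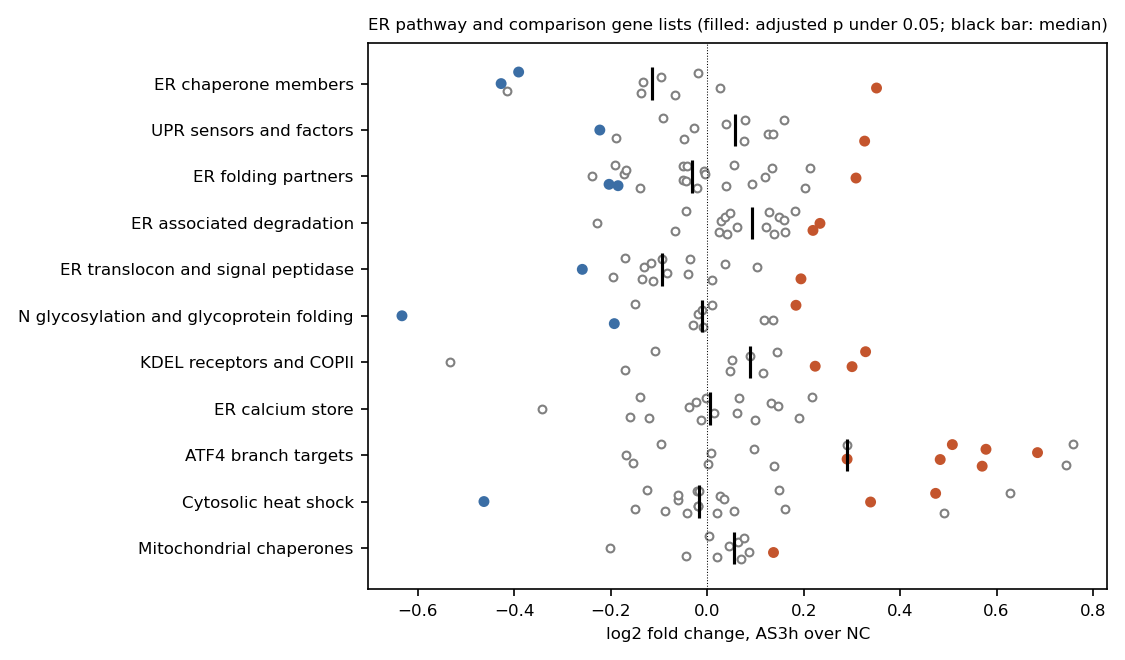
Log2 fold change, AS3h over NC (x axis), of each gene tested in the 10 member genes and in 10 other lists (rows), with the list median as a black bar. Filled points passed at an adjusted p under 0.05, and the medians run from -0.115 for the members to 0.290 for ATF4 branch targets.

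In the list of ATF4 branch genes all calls were higher, and a part of PERK in them was not tested. Of 16 ATF4 branch genes, 6 rose, none fell and 10 had no call, with a median log2 fold change of 0.290. They included Ppp1r15a, which encodes GADD34, the phosphatase subunit that restarts translation (0.68 ± 0.11, adjusted p = 0.00134, limma), and the amino acid transporter gene Slc7a5 (0.57 ± 0.082, adjusted p = 0.000749, limma). Atf4 itself rose less (0.29 ± 0.055, adjusted p = 0.00483, limma), and Sesn2, encoding the leucine sensor sestrin 2, rose by 0.58 ± 0.083 (adjusted p = 0.000749, limma). Of the 16 log2 fold changes 3 were below 0, against 50.8% of all genes tested, of which 5.04% were called higher. The 10 genes without a call included Ddit3 (0.0025 ± 0.067, adjusted p = 0.988, limma), named after its value was seen. Of 21 cytosolic heat shock rows, Dnajb1, a cochaperone of Hsp70 (0.34 ± 0.065, adjusted p = 0.00502, limma), and Bag3, a nucleotide exchange factor (0.47 ± 0.12, adjusted p = 0.0284, limma), rose, and Chordc1, a cochaperone of Hsp90, fell (-0.46 ± 0.11, adjusted p = 0.0155, limma). The other 18 had no call, and the median was -0.0172. Bag3 did not pass in 5 of the fits that left out 1 library. Of 10 genes listed as mitochondrial chaperones 1 rose and 9 did not pass. That list also holds the proteases Lonp1 and Clpp, and Hspa14, which is cytosolic. Hspa9, the mitochondrial Hsp70, was the one that rose (0.14 ± 0.039, adjusted p = 0.0403, limma), and it did not pass in 11 of 12 fits that each left out 1 library. Without AS3h 4 and AS3h 5 neither Hspa9 nor Bag3 passed (adjusted p = 0.1 and 0.143). The difference between these lists and the 10 chaperones was not tested.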

How the data were processed

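Hippocampal RNA of 12 rat samples, 6 NC and 6 AS3h, was analysed. Per the labels' protocols, the libraries were strand-specific. STAR, FastQC 0.11.5 and the genome build mRatBN7.2 are listed in the submitters' processing notes. Not given in the sources used here are the counter, its strand setting and its annotation, so reads of overlapping or near-identical genes may be shared or split. The authors deposited log2 values, and from the values each is the log2 of 1 plus a count of reads divided by a library factor (0.92 to 1.16). Whole reads came back for 100% of values (within 0.02 read).

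Genes with a normalised value of at least 1 in at least 6 libraries were fitted with limma 3.58.1 in R 4.3.3 on the deposited log2 values, with group only, a trend and robust empirical Bayes, and Benjamini-Hochberg adjustment at 0.05. Because 1 is added, folds of low genes are understated. For single values, exact permutation tests (two-sided) were used. Between the 2 most similar replicates, counts differed with a chi-square 11.9 times its degrees of freedom, more than counting error alone gives. All libraries were therefore fitted as separate samples, though this cannot show that they came from different animals. Counting errors cover counting only.

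The members and lists were chosen with earlier results of these data known. Besides members, the text names up to 4 called genes per list by smallest p (2 where none passed) and the 5 genes most like the members, of which 2 are not reported here; exceptions are marked. Of 244 symbols listed, 9 had no row. On simulated data for AS3h against NC (20010 genes tested), among genes with means of 100 reads or more, the fit recovered 73% of 1.25-fold and 100% of 1.5-fold changes, and unchanged genes made up 4.95% of 182 calls. The simulation gave all genes the same dispersion, taken from NC, and no difference in cell mix between libraries. Its shares therefore need not hold for the real libraries. Alternatives were limma-voom, filters, pseudocounts, library factors, thresholds, the replicate block, marker covariates and omitted libraries. Motifs were searched in RefSeq windows of GRCr8. Planned count-model fits were not run, since the unit was log2, and a planned look at protein ends was not made. Plots used matplotlib 3.10.9 (Python 3.11.15).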

Additional observations from a re-analysis of the deposited data

Results flagged for a closer look

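In 10 of 94 groups of 6 values examined, the highest or lowest library lay apart from the rest by more than 0.625 of the group's range; chance gives about 1 in 20. In AS3h 5, Sdf2l1 stood at 243 normalised reads, choroid plexus markers at 93746 and oligodendrocyte markers at 602849, each the highest of its group. Xbp1 was highest in AS3h 1, at 1815. Ern1 was lowest in AS3h 2, at 461, and Hspa9 was highest there, at 7184, as were meningeal fibroblast markers at 17245. Txndc11 was lowest in AS3h 3, at 810.5, and Nucb1 highest in AS3h 6, at 7084. In NC 1 microglial markers were lowest, at 8128.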

How the results depend on the processing

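The counts of called members (2 lower, 1 higher) were the same with limma-voom, no filter, a filter at 10, a pseudocount of 0.1, recomputed median-of-ratios, TMM or total-read factors, non-robust empirical Bayes and the replicate block. With 1 library left out, 2 to 3 were lower and 1 was higher. At a threshold of 0.1, 4 were lower; at 0.01, 1 was lower and 0 higher. Without AS3h 4 and AS3h 5, 1 was lower, and with choroid plexus and blood covariates 0 were lower and 0 higher. Of all genes tested, 960 were higher and 804 lower; these became 1511 and 1324 at 0.1, 332 and 254 at 0.01, 455 and 411 without AS3h 4 and AS3h 5, 69 and 77 with both covariates, and 588 to 983 and 450 to 824 with 1 library left out (588 and 450 without NC 2, 606 and 501 without AS3h 4). With the choroid plexus covariate 632 were higher. Of the other pathway genes 18 were higher and 7 lower; these became 7 and 2 at 0.01, 9 and 4 without AS3h 4 and AS3h 5, 10 and 3 with the choroid plexus covariate, 2 and 1 with both covariates, and 10 to 17 and 5 to 9 with 1 library left out. The cause was not tested. Of the genes named from the pathway lists, Uggt2, Sesn2 and Slc7a5 were the ones called with both covariates; Zfand2a and Ankmy2 were not refitted.

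Dnajb9 reversed to -0.00286 without AS3h 4 and AS3h 5, -0.0137 with the choroid plexus covariate and -0.00269 with both. Hyou1 reversed to 0.0751 with both covariates and to 0.0119 and 0.021 without AS3h 1 or AS3h 2 (-0.0649 to 0.021 with 1 library left out), and Gemin2 to 0.0122 without NC 5 (-0.102 to 0.0122). With the replicate number as a block, 691 genes were higher and 605 lower over the whole table, and 1 member was higher and 2 lower. Of the other pathway genes 15 were higher and 5 lower, and Ern1 (adjusted p = 0.0524), Erp44 (0.0552), Ube2g2 (0.0798), Dad1 (0.072), Sec24d (0.072) and Hspa9 (0.072) were not called. Same-numbered libraries did not deviate together over all genes (coefficients from -0.0282 to 0.0653). These coefficients cannot tell whether libraries of equal number shared a batch, because other differences between libraries also enter them. With the choroid plexus covariate Xbp1, Ern1, Erp44, Pdia6, Ube2g2, Sec61a1, Dad1, Sec24d, Bag3 and Hspa9 were not called (adjusted p = 0.0545 to 0.131), and with no filter Ube2g2, Dad1 and Sec24d were not. The library factors moved the median log2 fold change of all genes by less than 0.1. The planned quasi-likelihood and Wald count fits were not run, because the deposited unit was log2. Counting error limits Sdf2l1 most, with 144 reads in its lowest library.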
